A study of Mus musculus with 10 samples.

Results

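A set of 10 genes of neutrophils and of the signals that draw them was followed in MC38 tumors: S100a8, S100a9, Csf3r, Cxcr2, Retnlg, Cxcl1, Cxcl2, Cxcl5, Il1b and Mmp9. They were chosen by name, with earlier results of these data known, and 10 of 10 were found among the 45777 genes of the table. All 10 passed the filter on low counts, which left 21523 genes for testing. MC38 is a mouse colon carcinoma line, here grown under the skin of WT female C57BL/6 mice bought at 6 weeks of age. YH29407 inhibits IDO1, the enzyme that starts the breakdown of tryptophan to kynurenine, and aPD-1 is an antibody against the T cell checkpoint receptor PD-1. The groups were YH29407+aPD-1 (3 tumors, replicates 2, 3 and 4), YH29407 alone (3 tumors, replicates 1, 3 and 4), aPD-1 alone (2 tumors, replicates 3 and 4) and control (2 tumors, replicates 3 and 5). YH29407 was given at 100 mg/kg, and sampling on day 5 of treatment is assumed from the study's methods. Every tumor came from the same implanted line, was fixed in formalin and embedded in paraffin, and gave 1 library of 56170804 to 76287659 counts.

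Neutrophils are short-lived granulocytes that leave the blood along gradients of CXC chemokines. Cxcl1, Cxcl2 and Cxcl5 encode ligands of the receptor CXCR2, and interleukin-1 beta, the product of Il1b, is a known inducer of these ligands in stromal and tumor cells. In tumors, neutrophils are known both as killers of tumor cells and as suppressors of T cells, and several of the genes are also used by other cells. Keratinocytes also make S100A8, S100A9 and interleukin-1 beta, macrophages make interleukin-1 beta and chemokines, and Mmp9 is used by macrophages and tumor cells. In bulk tumor RNA, fewer cells of a type and less RNA per cell cannot be told apart.

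Promoter sequences are shown for a pair of chemokine genes and for the pair of S100 genes, since the members of each pair rose and fell together over the tumors. Each run is the 250 bases before the gene's start in RefSeq, build GRCm38.p6, on the gene's own strand, with the letters GGGAATTTC in capitals. That motif, of the kind NF-κB factors bind, was chosen after these sequences had been read, so its presence in them is a description and no test.
Cxcl1 promoter, chr5:90890995-90891244, plus strand: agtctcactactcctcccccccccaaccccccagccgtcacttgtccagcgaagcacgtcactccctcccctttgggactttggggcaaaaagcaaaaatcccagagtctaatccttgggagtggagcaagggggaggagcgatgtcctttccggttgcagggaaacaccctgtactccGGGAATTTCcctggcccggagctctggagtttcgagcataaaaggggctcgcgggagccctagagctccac
Cxcl2 promoter, chr5:90903649-90903898, plus strand: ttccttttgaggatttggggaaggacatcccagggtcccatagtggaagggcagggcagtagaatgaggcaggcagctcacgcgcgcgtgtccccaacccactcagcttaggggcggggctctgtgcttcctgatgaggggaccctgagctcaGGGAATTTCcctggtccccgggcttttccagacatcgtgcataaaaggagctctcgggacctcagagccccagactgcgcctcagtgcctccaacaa
S100a9 promoter, chr3:90695722-90695971, minus strand: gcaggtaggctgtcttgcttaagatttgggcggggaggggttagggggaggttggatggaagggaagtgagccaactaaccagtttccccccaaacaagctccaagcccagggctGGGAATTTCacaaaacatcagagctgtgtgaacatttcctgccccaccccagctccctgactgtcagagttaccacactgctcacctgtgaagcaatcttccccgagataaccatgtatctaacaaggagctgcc
S100a8 promoter, chr3:90668821-90669070, plus strand: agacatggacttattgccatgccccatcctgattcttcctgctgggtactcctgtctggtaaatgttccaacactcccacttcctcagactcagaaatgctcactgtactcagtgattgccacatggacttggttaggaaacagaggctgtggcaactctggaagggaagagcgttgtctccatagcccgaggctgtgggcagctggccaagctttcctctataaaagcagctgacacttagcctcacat
The motif, searched on both strands, began 71 bases before the start of Cxcl1, 97 bases before that of Cxcl2 and 135 bases before that of S100a9. It was in 3 of the 8 promoters of the members that the RefSeq table holds (those of S100a8, S100a9, Csf3r, Cxcr2, Retnlg, Cxcl1, Cxcl2 and Il1b). Of all 32851 promoters of the same length in that table, 0.234% held it. The S100a8 window had no match, although S100a8 and S100a9 followed each other closely.

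The calprotectin genes S100a8 and S100a9 encode the subunits of a calcium-binding protein that fills the neutrophil cytosol. S100a8 stood at 8.06, 5.79 and 0.0899 CPM (read counts relative to the TMM-scaled library size) in YH29407+aPD-1 replicates 2, 3 and 4, at 2.13, 1.69 and 8.08 CPM in YH29407 replicates 1, 3 and 4, at 0.488 and 0.795 CPM in aPD-1 replicates 3 and 4, and at 14.8 and 0.385 CPM in control replicates 3 and 5. S100a9 stood at 15.3, 6.78 and 0.0719 CPM in the YH29407+aPD-1 tumors, at 1.42, 2.08 and 4.31 CPM in the YH29407 tumors, at 0.409 and 0.795 CPM in the aPD-1 tumors, and at 21.8 and 0.356 CPM in the control tumors, replicates in the same order. Both genes were highest in control replicate 3 and lowest in YH29407+aPD-1 replicate 4, which had 5 counts of S100a8 and 4 of S100a9. The 2 control tumors therefore lay near opposite ends of the range, and every other group fell between them apart from that 1 combination tumor.

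Csf3r and Cxcr2 encode the receptors through which granulocytes answer G-CSF and the CXC ligands, and Retnlg encodes a resistin-like protein of mouse neutrophils. Csf3r reached 33.9, 32.4 and 8.60 CPM in the YH29407+aPD-1 tumors, 11.4, 9.43 and 16.9 CPM in the YH29407 tumors, 6.66 and 7.82 CPM in the aPD-1 tumors, and 31.5 and 8.84 CPM in the control tumors. For Cxcr2 the values were 4.24, 2.46 and 0.899 CPM with YH29407+aPD-1, 0.871, 0.790 and 2.44 CPM with YH29407, 0.205 and 0.288 CPM with aPD-1, and 1.93 and 0.143 CPM in the control group. The 3 combination tumors lay above both aPD-1 tumors for both receptors, whereas they overlapped the YH29407 and control tumors. Retnlg was sparse, at 1.45, 0.786 and 0 CPM in the YH29407+aPD-1 tumors, 0, 0.435 and 0.505 CPM in the YH29407 tumors, 0.173 and 0.206 CPM in the aPD-1 tumors, and 4.73 and 0.0713 CPM in the control tumors. Its largest count, 333, was in control replicate 3, and no group was free of overlap with another.

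Among the attractants, Cxcl1 was the most abundant ligand, with a median of 35.4 TPM (a share of transcripts that allows for gene length) over the 10 tumors, against 4.25 TPM for Cxcl2 and 0.375 TPM for Cxcl5. Cxcl1 measured 26.8, 12.8 and 4.08 CPM in the YH29407+aPD-1 tumors, 9.18, 14.6 and 19.7 CPM in the YH29407 tumors, 8.29 and 17.2 CPM in the aPD-1 tumors, and 65.8 and 4.67 CPM in the control tumors. Cxcl2 measured 7.33, 1.91 and 0.342 CPM with YH29407+aPD-1, 0.138, 2.84 and 1.82 CPM with YH29407, 0.519 and 3.55 CPM with aPD-1, and 14.2 and 0.812 CPM in the control group. No treatment separated either ligand from the control group. Cxcl5, an epithelial ligand of CXCR2, gave 63, 55 and 0 counts in the YH29407+aPD-1 tumors, 27, 12 and 77 counts in the YH29407 tumors, 0 and 0 counts in the aPD-1 tumors, and 183 and 9 counts in the control tumors. Set against a floor of 3 counts over the aPD-1 group, Cxcl5 was at least 26.1-fold higher in the YH29407+aPD-1 group and at least 62.1-fold lower with aPD-1 than in the control group. These bounds cover counting error only: 1 combination tumor also had 0 counts, and 1 of the 2 control tumors had 9.

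Il1b encodes the inflammasome-processed cytokine interleukin-1 beta. It stood at 47.9, 30.6 and 3.20 CPM in the YH29407+aPD-1 tumors, 10.6, 6.57 and 25.2 CPM in the YH29407 tumors, 2.66 and 9.06 CPM in the aPD-1 tumors, and 66.7 and 7.77 CPM in the control tumors. Control replicate 3 and YH29407+aPD-1 replicates 2 and 3 were the 3 highest tumors, and YH29407 replicate 4 followed.

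Mmp9, which encodes the gelatinase MMP-9 stored in neutrophil granules and also secreted by macrophages, was the most abundant member by far, with a median of 110 TPM. It stood at 384, 258 and 257 CPM in YH29407+aPD-1 replicates 2, 3 and 4, at 11.5, 160 and 10.1 CPM in YH29407 replicates 1, 3 and 4, at 132 and 126 CPM in the aPD-1 tumors, and at 97.5 and 455 CPM in control replicates 3 and 5. All 3 combination tumors lay above all 3 YH29407 tumors and above both aPD-1 tumors. In the control pair the order was the reverse of the other 9 members, with replicate 5 above replicate 3.

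**Figure D1:**
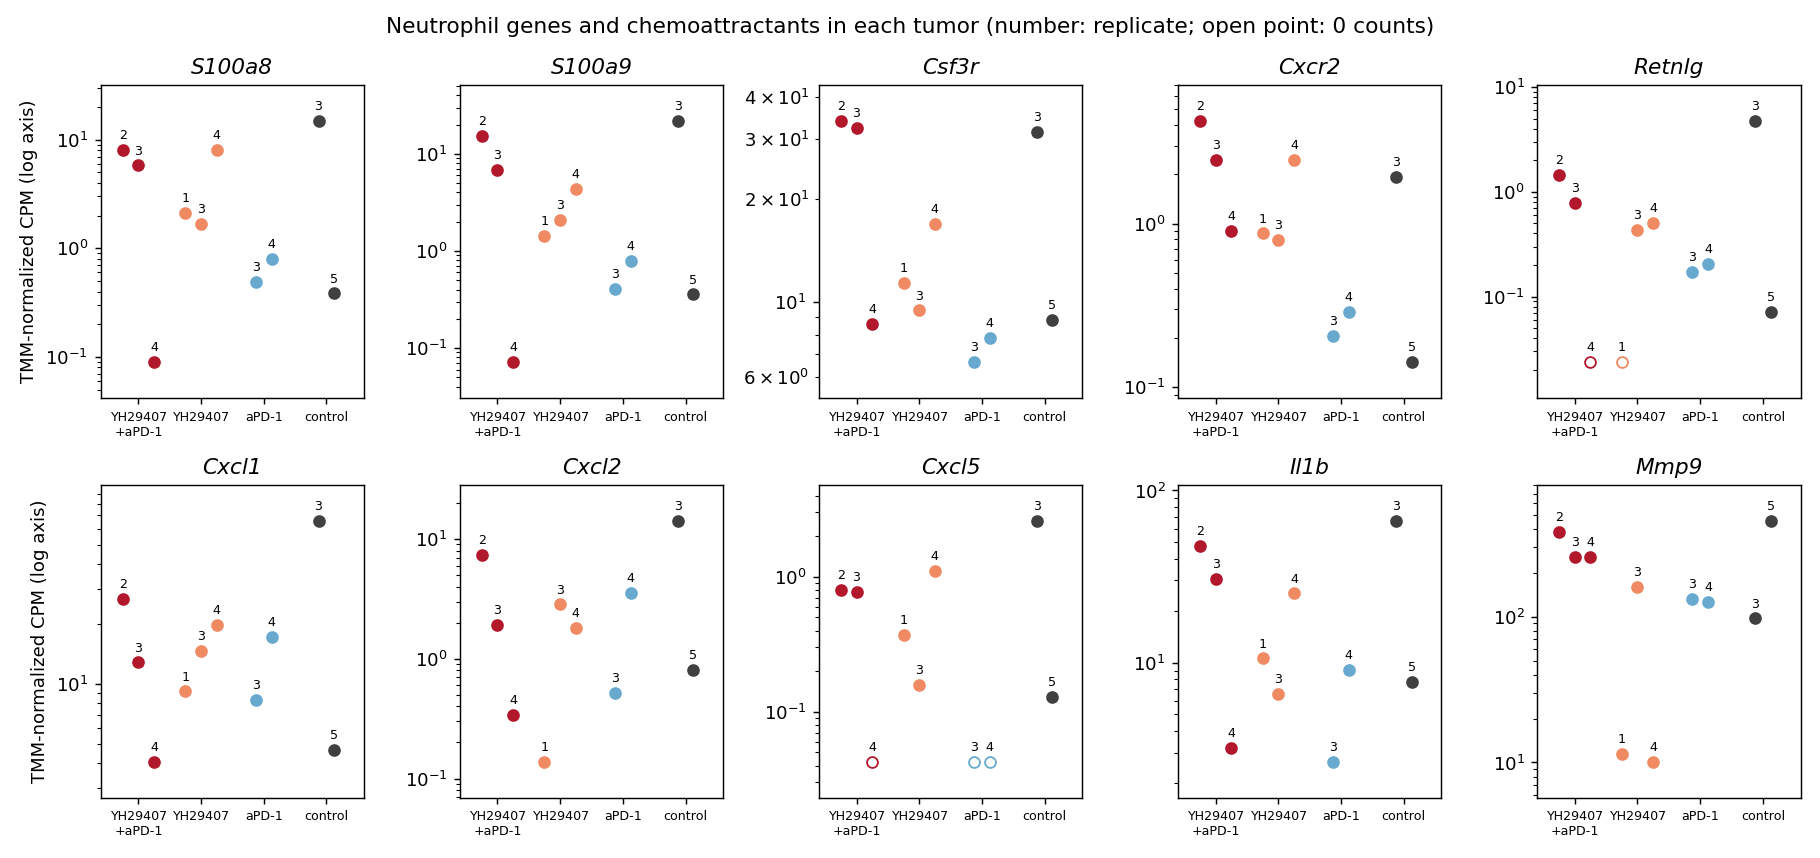
CPM of each member (log axis) in the 10 tumors by treatment group, with the replicate number above each point and open points for 0 counts. Control replicate 3 was the highest tumor for 7 members, the YH29407+aPD-1 tumors spread from 33.9 to 8.60 CPM for Csf3r, and Mmp9 was low in YH29407 replicates 1 and 4 only.

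A similar order of the tumors, one that cut across the treatments, was seen in 9 of the 10 members. Ranked over the 10 tumors, control replicate 3 was highest for 7 of these 9 genes and YH29407+aPD-1 replicate 2 for the other two, Csf3r and Cxcr2. YH29407+aPD-1 replicate 4 and aPD-1 replicate 3 were each among the 3 lowest tumors for 8 of the 9. In the control pair, replicate 3 exceeded replicate 5 by 66.4 times for Retnlg, 61.0 times for S100a9 and 38.6 times for S100a8, and by 3.56 times for Csf3r, the smallest ratio of the 9. At least 3 times more CPM in control replicate 3 than in replicate 5 was found for 9 of 10 members, against 6.07% of the genes tested, while for Mmp9 the ratio was 0.214. This sets 1 library against 1 library and has no replicate check.

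**Figure D2:**
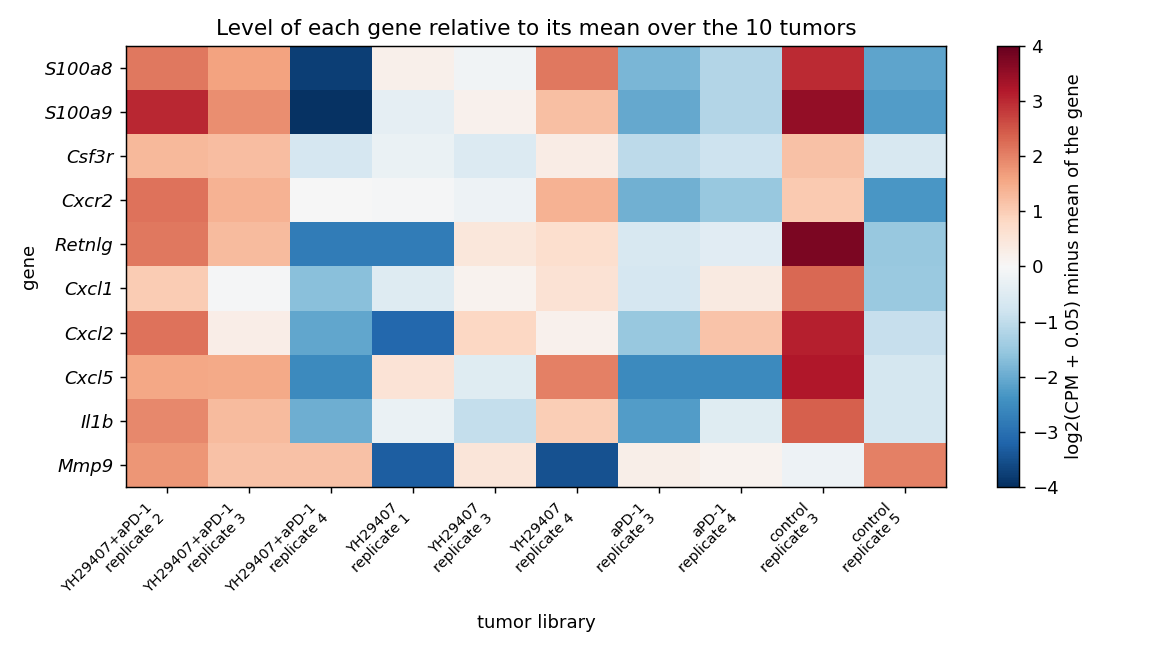
Level of each member (rows) in each tumor (columns) as log2(CPM + 0.05) minus the gene's mean over the 10 tumors, red above and blue below it. Control replicate 3 and YH29407+aPD-1 replicates 2 and 3 are red for most rows, YH29407+aPD-1 replicate 4 and aPD-1 replicate 3 are blue for most rows, and Mmp9 follows another order.

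Pearson's r of log2 CPM over the 10 tumors was positive for 36 of 36 pairs of the 9 members without Mmp9, with a median of 0.81 and a range of 0.44 to 0.98. Of the 45 pairs of all members, adjusted permutation p-values were under 0.05 for 29 by Pearson's r and for 27 by Spearman's rho, and none of these pairs involved Mmp9. S100a8 and S100a9 had r = 0.98 and rho = 0.95 (permutation p = 1e-05, the smallest that the resamples can give, and 0.00011, adjusted 0.00045 and 0.00495). Csf3r and Cxcr2 had r = 0.86 and rho = 0.85 (permutation p = 0.00257 and 0.00285, adjusted 0.00723 and 0.00916). The ligand pair Cxcl1 and Cxcl2 had r = 0.85 and rho = 0.84 (permutation p = 0.00242 and 0.00374, adjusted 0.00723 and 0.0112). Without the 2 tumors farthest from the median of the first gene, r was 0.96, 0.78 and 0.72 for these 3 pairs.

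Of the 20 pairs of a neutrophil gene (S100a8, S100a9, Csf3r, Cxcr2 or Retnlg) with Cxcl1, Cxcl2, Cxcl5 or Il1b, r was positive in 20, with a median of 0.82 and a range of 0.44 to 0.93. Adjusted permutation p-values were under 0.05 for 15 of them by Pearson's r and for 14 by Spearman's rho. The highest r was that of Csf3r and Il1b, and the lowest that of Cxcr2 and Cxcl2. Of pairs on the same side, S100a8 and Csf3r had r = 0.85 and rho = 0.81 (permutation p = 0.00286 and 0.00739, adjusted 0.00757 and 0.0185), and S100a8 and Retnlg r = 0.80 and rho = 0.81 (permutation p = 0.00565 and 0.00599, adjusted 0.0134 and 0.0159). Without the 2 farthest tumors these were 0.88 and 0.60. Cxcl1 and Cxcl5 had r = 0.68 and rho = 0.72 (permutation p = 0.0285 and 0.0226, adjusted 0.0457 and 0.0407), but r was 0.37 without the 2 farthest tumors, so that the relation rested on them. For Cxcl2 and Il1b, r was 0.71 and rho 0.62 (permutation p = 0.0227 and 0.0601, adjusted 0.0378 and 0.0902), with r = 0.76 without the 2 farthest tumors. Csf3r and Cxcl2 did not pass, with r = 0.62 and rho = 0.47 (permutation p = 0.0618 and 0.178, adjusted 0.0869 and 0.235) and r = 0.59 without the 2 farthest tumors.

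Mmp9 stood apart from the rest. With S100a8 it had r = -0.33 and rho = -0.43 (permutation p = 0.355 and 0.219, adjusted 0.432 and 0.273), and r = -0.28 without the 2 farthest tumors. Its r with the other 9 members ran from -0.33 to 0.28. After the mean of each treatment group was taken out, the 36 pairs without Mmp9 had a median r of 0.91, from 0.65 to 0.998, pooled over the groups. With 2 or 3 tumors a group, this cannot show that the pairs moved together in each group. Without control replicate 3 their median r was 0.76, from 0.30 to 0.97. Both calculations were added after the data had been seen. In each tumor both genes of a pair were read from 1 library and shared its depth and cell composition.

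**Figure D3:**
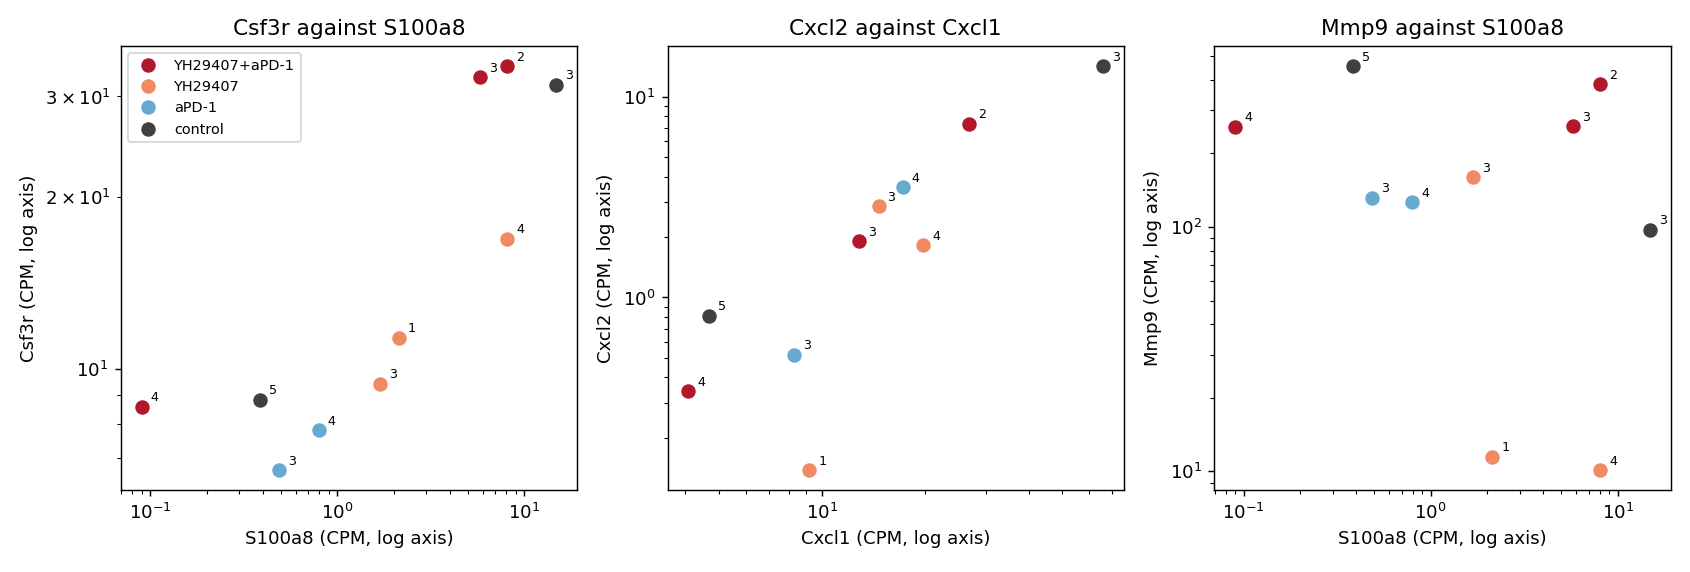
Scatter plots of CPM (log axes) in the 10 tumors, colored by group and numbered by replicate: Csf3r against S100a8, Cxcl2 against Cxcl1, and Mmp9 against S100a8. The first 2 pairs rise together (r = 0.85 for each), with control replicate 3 at the upper end, and Mmp9 does not follow S100a8 (r = -0.33).

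Across the 14661 other genes with a mean of at least 1 CPM, the 5 whose log2 CPM was most like Csf3r, Cxcr2, S100a8, S100a9 and Retnlg were Gm38525 (mean r over the 5 genes, 0.88), Mefv (0.86), C1rb (0.86), Lrrc25 (0.85) and Ccl3 (0.85). Mefv encodes pyrin, an inflammasome sensor of granulocytes and monocytes, and Ccl3 a chemokine made by myeloid cells. Ccl3 measured 16.7, 15.9 and 2.75 CPM in the YH29407+aPD-1 tumors, 4.23, 7.73 and 7.65 CPM in the YH29407 tumors, 4.58 and 5.09 CPM in the aPD-1 tumors, and 36.4 and 4.76 CPM in the control tumors. It was highest in the same 3 tumors as Il1b.

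Against YH29407 alone, Mmp9 lay higher in 3 of 3 combination tumors. The log2 fold change was 2.31 (SE 1.04, unadjusted p = 0.055, adjusted p = 0.292 by edgeR's quasi-likelihood test), and 1 of 10 members was free of overlap in this direction, against 10.4% of the genes tested. YH29407 replicate 3 lay nearest to the combination: without YH29407 replicate 3 the log2 fold change was 4.83 and passed the threshold (adjusted p = 0.0237). That fit kept only YH29407 replicates 1 and 4 of this group. It called 431 genes in all, against 0 with the 10 tumors, so the call was not particular to Mmp9. Of the other members, Csf3r had a log2 fold change of 0.99 (SE 0.59, adjusted p = 0.375) and S100a9 one of 1.5 (SE 1.51, adjusted p = 0.585). Of 10 estimates, 9 were positive, with a median of 0.97 beside 0.04 over all genes. Without YH29407+aPD-1 replicate 2 that median was 0.29 and S100a9 stood at 0.39, and without YH29407 replicate 4 the median was 1.46. None of the 10 members passed an adjusted p of 0.05, nor did any gene tested (0%). At an unadjusted p under 0.05 the count was 0 of 10 members, against 17.4% of all genes. DESeq2 called 0 members here as well, but 1397 genes in all when fitted to the 10 tumors and 785 when fitted to these groups alone. Csf3r, Cxcr2 and Mmp9 were called by limma-voom with sample quality weights, 3 of 10 members, against 8090 of the 21523 genes tested.

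Against aPD-1 alone, both receptor genes lay higher in all 3 combination tumors, but neither passed the adjusted threshold. Cxcr2 had a log2 fold change of 3.35 (SE 1.16, unadjusted p = 0.0186, adjusted p = 0.565) and Csf3r one of 1.79 (SE 0.69, unadjusted p = 0.0305, adjusted p = 0.565), by edgeR's quasi-likelihood test. The combination tumors lay above both aPD-1 tumors for Csf3r, Cxcr2 and Mmp9, 3 of 10 members, against 14.9% of the genes tested. S100a9 and Il1b had log2 fold changes of 3.61 (SE 1.96) and 2.21 (SE 1.26) with overlapping tumors and adjusted p-values of 0.565 each. All 10 estimates were positive, with a median of 2.09 beside 0.10 over all genes, which stayed at 2.09 with Cxcl5 set at its bound. No member was called, as for all genes (0%), and 3 of 10 had an unadjusted p under 0.05, Cxcr2, Csf3r and Cxcl5, against 8.1% of the genes. DESeq2 on the libraries compared called Cxcr2 (adjusted p = 0.00649) and Mmp9 (adjusted p = 0.0349), among 321 genes called in all. Limma-voom with sample quality weights called Csf3r, Cxcr2, Il1b and Mmp9, 4 of 10 members, against 4750 of the 21523 genes tested.

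Markers of other cell types also differed between the tumors. The 20 keratinocyte and skin markers summed to 1282, 287 and 18.3 CPM in YH29407+aPD-1 replicates 2, 3 and 4, to 13.4 to 33.0 CPM with YH29407, 22.9 to 40.6 CPM with aPD-1, and 5.80 to 10.6 CPM in the control group. Krt14, a basal keratinocyte keratin, stood at 186 and 67.7 CPM in replicates 2 and 3 and at no more than 0.342 CPM in the other 8 tumors. The 12 skeletal muscle markers summed to 64.7 to 310 CPM with YH29407+aPD-1, against 12.1 to 15.9 CPM with YH29407, 9.81 to 106 CPM with aPD-1 and 5.84 to 6.44 CPM in the control group. The 14 macrophage and monocyte markers, by contrast, summed to 653 to 1403 CPM with the combination, 787 to 1026 CPM with YH29407, 1131 to 1147 CPM with aPD-1 and 1028 to 1194 CPM in the control group. The 10 T cell markers summed to 27.3 to 83.1 CPM with YH29407+aPD-1, 10.4 to 35.2 CPM with YH29407, 23.9 to 25.3 CPM with aPD-1 and 16.1 to 20.0 CPM in the control group. In the combination against YH29407 their estimates were positive for 10 of 10, with a median of 1.7, and none was called. An unadjusted p under 0.05 was found for 8 of these 10, against 17.4% of the genes tested. The 10 fibroblast markers summed to 2305 to 3130 CPM with the combination, 1609 to 2211 CPM with YH29407, 1752 to 1783 CPM with aPD-1 and 1856 to 2748 CPM in the control group. Erythroid and platelet markers summed to 177 to 352 CPM with the combination and 52.1 to 79.1 CPM with YH29407. With aPD-1 they summed to 146 to 1280 CPM, and in the control group to 202 to 255 CPM. Control replicate 3, the tumor highest for S100a8, S100a9 and Il1b, had 0.327 CPM of Krt14. YH29407+aPD-1 replicates 2 and 3, where Krt14 was high, ranked 2 and 3 of the 10 tumors for S100a9 and Il1b, and 3 and 4 for S100a8. The part of any of these lists in the levels of the 10 genes was not tested.

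**Figure D4:**
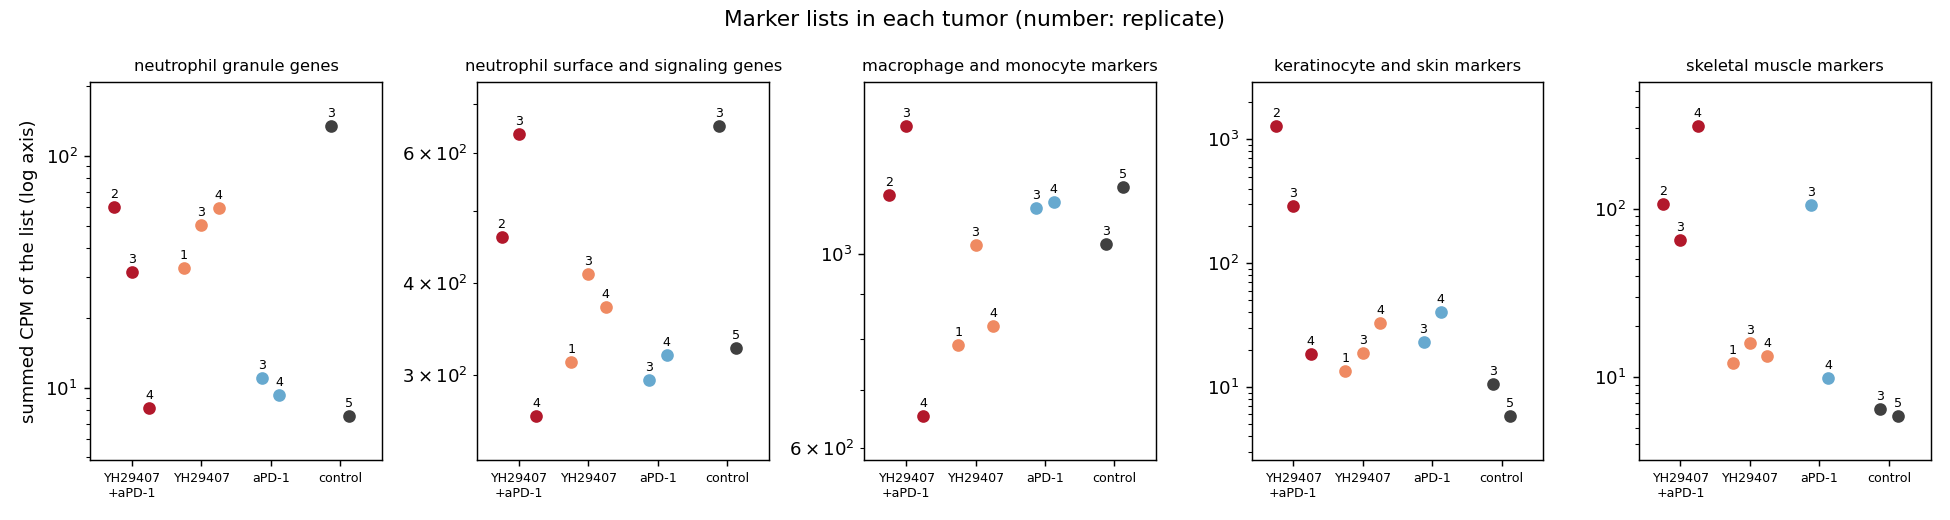
Summed CPM (log axis) of 5 marker lists in the 10 tumors by treatment group, numbered by replicate. Neutrophil granule genes are highest in control replicate 3 and lowest in control replicate 5, while keratinocyte and skin markers are high in YH29407+aPD-1 replicates 2 and 3, at 1282 and 287 CPM.

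Comparisons with the control group turned on 1 tumor. Against the control group, the combination gave positive estimates for 3 of 10 members, YH29407 alone for 1 and aPD-1 alone for 0, with medians of -0.65, -1.36 and -2.36 on the log2 scale beside 0.10, 0.01 and 0.00 over all genes. With Cxcl5 set at its bound the median with aPD-1 stayed at -2.36. S100a9 had a log2 fold change of -0.58 (SE 1.63, adjusted p = 0.860) with the combination, -2.08 (SE 1.64, adjusted p = 1) with YH29407 and -4.19 (SE 2.08, adjusted p = 1) with aPD-1, by edgeR's quasi-likelihood test. Without control replicate 3 these became 4.36, 2.86 and 0.75, and the medians over the members became 1.99, 1.85 and 0.74. Their direction thus depended on which control tumor was kept. Leaving out control replicate 3 reversed 38 of the 75 fold changes of members examined over all comparisons, more than any other tumor.

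No member passed in any of the 3 control comparisons, and neither did any gene (0% in each). With the combination against the control group, 0 of 10 members had an unadjusted p under 0.05, against 10.1% of the genes, and with YH29407 against the control group 0 of 10, against 4.54%. Mmp9 had the smallest p with YH29407 against the control group, with a log2 fold change of -2.19 (SE 1.11, unadjusted p = 0.0800, adjusted p = 1). With aPD-1 against the control group, 1 of 10 members, Cxcl5, had an unadjusted p under 0.05, against 2.71% of the genes. Both aPD-1 tumors lay below both control tumors for Csf3r and Cxcl5, 2 of 10 members, against 21% of the genes tested, which is near that share. For Csf3r the log2 fold change was -1.48 (SE 0.73, unadjusted p = 0.0733, adjusted p = 1).

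**Figure D5:**
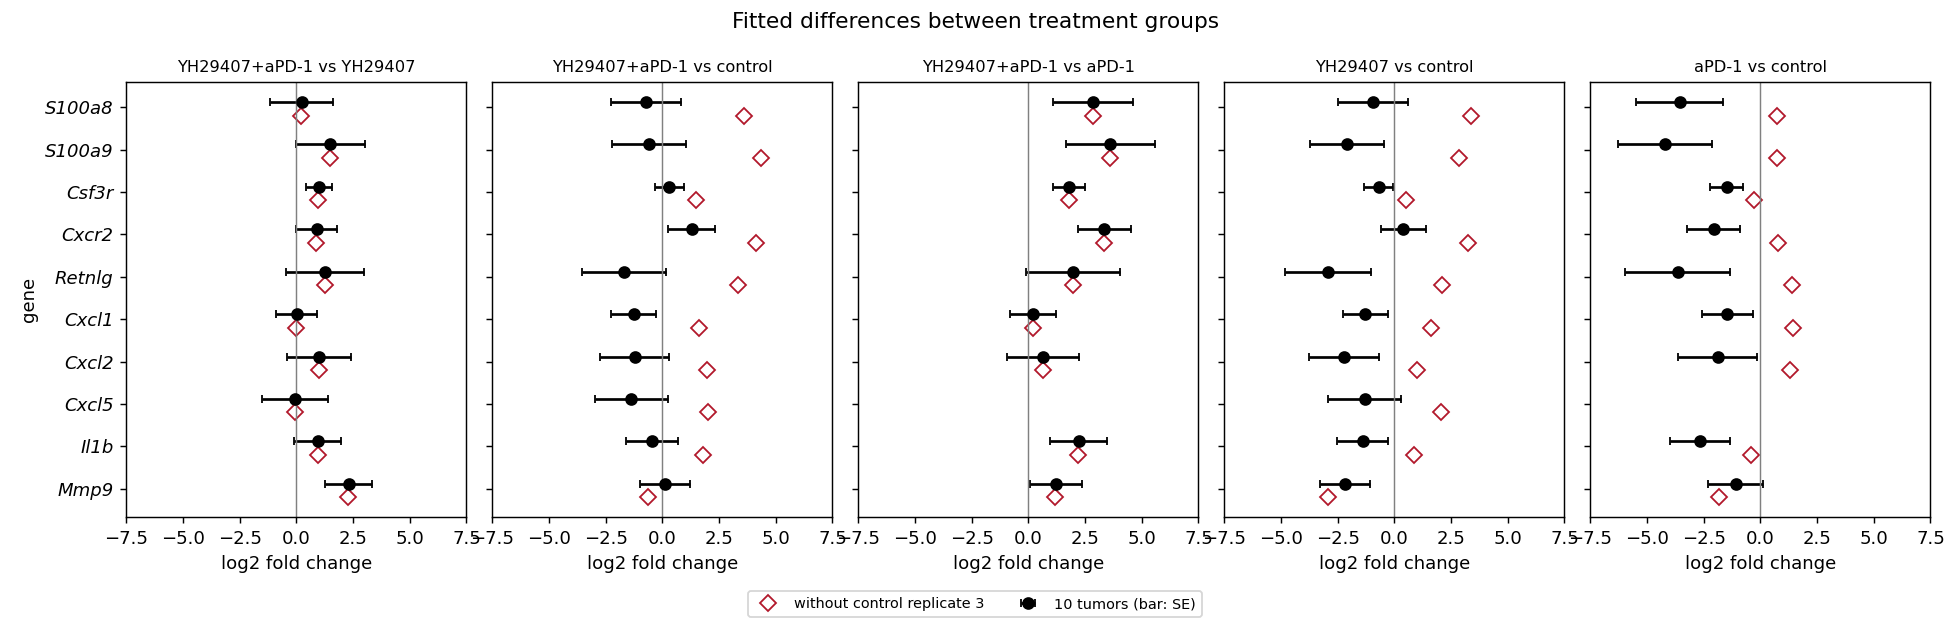
Log2 fold changes of the members in 5 comparisons of treatment groups (filled points, bars of 1 SE) and without control replicate 3 (open diamonds), with Cxcl5 left out where aPD-1 alone, at 0 counts, is compared. Without that tumor the S100a9 estimate against the control group becomes 4.36 with YH29407+aPD-1 and 2.86 with YH29407, while comparisons between treated groups barely move.

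With the groups combined, edgeR called no member. These estimates averaged the group estimates on each side, and each group counted alike whatever its number of tumors. For the groups with aPD-1 (5 tumors) against those without (5 tumors), 1 of 10 estimates was positive. This was Mmp9 at 0.61 (SE 0.79, adjusted p = 0.771), and S100a8 stood at -1.67 (SE 1.14, adjusted p = 0.636). No gene passed (0%), and 1 member, Cxcl5, had an unadjusted p under 0.05, against 8.82% of the genes. Limma-voom with sample quality weights called Mmp9 here, at a log2 fold change of 2.002 (adjusted p = 0.0221). That was 1 of 10 members, against 3399 of the 21523 genes tested. The median over the members was -0.79, and without control replicate 3 it was 0.60, with positive estimates for S100a8, S100a9, Csf3r, Cxcr2, Retnlg, Cxcl1, Cxcl2 and Il1b. For the groups with YH29407 (6 tumors) against those without (4 tumors), Cxcr2 had an edgeR log2 fold change of 1.87 (SE 0.76, unadjusted p = 0.0364, adjusted p = 0.683). It was the 1 member of 10 with an unadjusted p under 0.05, against 7.26% of the genes and with 0% called.

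The interaction asks whether aPD-1 acted differently with YH29407 than without it. All 10 estimates were positive, with a median of 3.51 beside 0.04 over all genes. Csf3r had 2.47 (SE 0.93, unadjusted p = 0.0273, adjusted p = 0.760) and S100a9 5.69 (SE 2.55, unadjusted p = 0.0531, adjusted p = 0.817), by edgeR's quasi-likelihood test. No gene was called (0%), and Csf3r and Cxcl5, 2 of 10 members, had an unadjusted p under 0.05, against 6.17% of the genes. Limma-voom with sample quality weights called Csf3r (adjusted p = 0.0337) and Mmp9 (adjusted p = 0.0169), 2 of 10 members, against 1722 of the 21523 genes tested. Without control replicate 3 the median of the members was 0.42, Csf3r stood at 1.26 and S100a9 at 0.74, and the estimates of S100a8, Retnlg, Cxcl1 and Cxcl2 were negative.

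Deposited FPKM of the members, compared by 2-sided exact permutation tests on log2(FPKM + 1), gave no p under 0.05 in 7 comparisons. With a pseudocount of 0.1 in place of 1, Cxcr2 in all YH29407 tumors against the rest passed, at exact p = 0.0476. With 1, the smallest p was 0.1 for Mmp9 in the combination against YH29407, which is the smallest that 3 against 3 tumors allow, and 3 against 2 and 2 against 2 tumors cannot go below 0.2 and 0.333. With the groups pooled, where 0.00794 and 0.00952 could be reached, the smallest p-values were 0.190 for aPD-1 and 0.124 for YH29407.

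Other neutrophil genes were followed in lists that did not hold the members. The granule gene list was mixed. Some transcripts of primary and secondary granules, made in the marrow, were at or near 0: Mpo reached at most 0.288 CPM, Elane 0.0790 CPM and Camp 0.114 CPM over the 10 tumors. Ly6g, the mouse neutrophil surface antigen, reached at most 0.284 CPM. Others of the list went higher: Prtn3, also of primary granules, reached 2.70 CPM, Mmp8 9.63 CPM, Chil3 30.5 CPM, Hp 32.7 CPM and Lcn2 67.9 CPM. Lcn2, which encodes a siderophore-binding granule protein, stood at 27.9, 5.06 and 2.32 CPM in the YH29407+aPD-1 tumors, 17.0, 3.96 and 36.4 CPM in the YH29407 tumors, 2.05 and 1.12 CPM in the aPD-1 tumors, and 67.9 and 2.08 CPM in the control tumors. The formyl peptide receptor gene Fpr1 had 44.3 CPM in control replicate 3 and 0.719 to 6.22 CPM in the other 9 tumors. The label of the gene group thus rests on S100, receptor and attractant transcripts, with the defining marker Ly6g nearly absent.

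Of 14 granule genes tested, 13 had positive estimates in the combination against aPD-1 alone and 0 in aPD-1 against the control group, with medians of 2.44 and -2.57. The 16 granule genes of the list summed to 11.0 and 9.27 CPM in aPD-1 replicates 3 and 4, against 134 CPM in control replicate 3 and 7.52 CPM in control replicate 5, so that the direction of this sum against the control group rested on control replicate 3. Of 24 surface and signaling genes, 20 and 3 were positive, with medians of 1.19 and -0.72. None was called in any comparison. Against aPD-1 alone, 6 of the 24 had an unadjusted p under 0.05, against 8.1% of the genes tested, and all 6 estimates were positive: Selplg, a selectin ligand, at 1.28 (SE 0.27), Ltb4r1, the leukotriene B4 receptor, at 1.74 (SE 0.51), and Siglece, Cxcr1, Csf2ra and Fpr2. Of these, Cxcr1 was near the floor, at no more than 0.180 CPM and with 0 counts in 5 tumors. In aPD-1 against the control group, 4 of the 24 had an unadjusted p under 0.05 with negative estimates, against 2.71% of the genes in either direction: Fpr1, at -4.56 (SE 1.56), and Fpr2, Siglece and Mrgpra2b. For Fpr1 this rested on control replicate 3, since control replicate 5 had 0.855 CPM and the aPD-1 tumors 0.913 and 1.001 CPM.

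The other attractants did not follow one direction. Of 10 tested, 5 had positive estimates in the combination against YH29407, with a median of -0.08. An unadjusted p under 0.05 was found for 3 of the 10, against 17.4% of the genes tested, all with negative estimates. These were Hc, which encodes complement C5, at -1.5 (SE 0.41), and Alox5ap and Lta4h, both of leukotriene synthesis, at -0.98 (SE 0.37) and -0.46 (SE 0.19). Of 13 upstream cytokine genes, 12 were positive in that comparison, with a median of 0.60. Among them Csf3, which encodes G-CSF, the ligand of the Csf3r product, had 1.41, 0.140 and 0.539 CPM with YH29407+aPD-1 and 0.0968, 0.105 and 0.0722 CPM with YH29407. Its log2 fold change was 2.91 (SE 1.24, unadjusted p = 0.0442). Il1a, the sister cytokine of Il1b, stood at 2.13 (SE 0.91, unadjusted p = 0.0446). Csf3 and Il1a were the 2 of 13 with an unadjusted p under 0.05, against 17.4% of the genes tested.

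Of 8 genes that process or receive interleukin-1, 4 were positive in the combination against YH29407. Only 1 of the 8 had an unadjusted p under 0.05, against 17.4% of the genes tested: Gsdmd, the pore through which the cytokine leaves the cell, at 1.29 (SE 0.45). Of 9 partners of the S100 proteins and of MMP-9, 4 were positive, and Timp1, the MMP-9 inhibitor, stood at -0.88 (SE 0.32, unadjusted p = 0.0241), with 61.5, 55.4 and 31.2 CPM with YH29407+aPD-1 and 103, 64.6 and 104 CPM with YH29407. Timp1 was thus highest in the 2 YH29407 tumors where Mmp9 was lowest. Of the 9 partners, 2 had an unadjusted p under 0.05, both with negative estimates, against 17.4% of the genes tested.

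Of 20 cytosolic neutrophil genes, 15 were positive in the combination against YH29407, with a median of 0.51, and they split by tumor. An unadjusted p under 0.05 was found for 7 with positive and 2 with negative estimates, against 17.4% of the genes tested in either direction. Stfa3, a stefin, stood at 16.9 and 4.91 CPM in YH29407+aPD-1 replicates 2 and 3, the tumors with high skin genes, and at 0.575 CPM in replicate 4, against 0 CPM in all 3 YH29407 tumors. Padi4, which encodes the histone-citrullinating enzyme of neutrophil extracellular traps, stood at 3.55, 0.786 and 12 CPM with YH29407+aPD-1 and at 138, 6.11 and 126 CPM with YH29407. Its log2 fold change was -4.05 (SE 1.22, unadjusted p = 0.00942), and the high tumors were again YH29407 replicates 1 and 4. Those tumors were not the highest for the members: over the members other than Mmp9 their median ranks were 6 and 4, with 1 the highest.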

How the data were processed

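RNA from 10 MC38 tumors fixed in formalin was sequenced after capture library preparation. The authors aligned reads to mm10 with HISAT2 and quantified genes with StringTie, and the deposited table holds whole-number read counts, FPKM and TPM per gene and tumor. The authors' own analysis script was not used here. Groups were taken from the treatment labels. Nothing in the labels says more of the replicates than that they are separate tumors.

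Counts were normalized by TMM, filtered with filterByExpr and fitted with edgeR 4.0.16 (quasi-likelihood test, R 4.3.3), with 1 term per group over the 10 libraries, and p-values were adjusted by Benjamini and Hochberg over the 21523 genes tested. Fold changes of all aPD-1 or all YH29407 tumors against the rest averaged the group estimates on each side with equal weight per group. CPM were scaled by TMM, and correlations used log2 CPM with a prior count of 2 and 100000 resamples, adjusted over 45 pairs. Fold changes of Cxcl5 that involve aPD-1 alone were not reported, since both libraries had 0 counts. FPKM were compared by exact permutation tests (scipy 1.17.1) with a pseudocount of 1. Alternatives were another normalization, no filter, a replicate block, smaller fits, DESeq2 1.42.0, limma 3.58.1 on voom values with quality weights or on FPKM, other pseudocounts, TPM, and each library left out. Correlations with the group means removed and medians without single tumors were added after the data were seen. On simulated counts of the combination against YH29407 (21523 genes), edgeR recovered 0%, 35.4%, 55.1% and 83.3% of genes changed 2, 4, 8 and 16 times. The changed genes were drawn at random from all genes tested, so these rates need not hold for the members. In this comparison the SE of a member reached 1.73, for Retnlg. The biological coefficient of variation was 0.502.

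The 10 members and 15 further gene lists were chosen with earlier results of these data known, and the motif searched in the promoters was chosen after the sequences had been read. The genes named are all members, up to 6 genes of another list with the smallest unadjusted p in the comparison described, the 5 genes most like the neutrophil members, and the highest and defining markers of other cell types. Lcn2 and the granule genes at or near 0 were named as defining markers, and other granule genes were named because they went higher. Promoter sequences are from RefSeq, GRCm38.p6.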

Additional observations from a re-analysis of the deposited data

How the results depend on the processing

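The count of members called at an adjusted p under 0.05 was 0 in all 8 comparisons by edgeR and stayed 0 under another normalization, without the filter on low counts, with the replicate block, in edgeR fits of the libraries compared and with limma on FPKM. In the combination against aPD-1 it was 1 (Cxcl5) by DESeq2 on the 10 libraries, 2 (Cxcr2 and Mmp9) by DESeq2 on the libraries compared and 4 (Csf3r, Cxcr2, Il1b and Mmp9) by limma-voom with sample quality weights. The weights of YH29407+aPD-1 replicates 2, 3 and 4 were 5.61, 0.531 and 0.0755, so that replicate 2, with the highest skin genes, counted most in that group. Those weights also gave 3 in the combination against YH29407, 1 in all aPD-1 tumors against the rest and 2 in the interaction. With each tumor left out in turn the count in the combination against YH29407 ran from 0 to 1, and it was 0 in the other comparisons. Over all genes, the 0 calls by edgeR in the combination against YH29407 became 1397 and 785 by DESeq2 on all and on the compared libraries, 8090 by limma-voom with weights, 175 without YH29407+aPD-1 replicate 4 and 431 without YH29407 replicate 3. In the other 7 comparisons, in the order of the combination against control tumors, the combination against aPD-1 tumors, each single treatment (YH29407, then aPD-1) against control tumors, all aPD-1, all YH29407 and the interaction, edgeR called 0, DESeq2 on the 10 libraries 425, 315, 153, 48, 321, 235 and 179, and limma-voom with weights 2184, 4750, 173, 1, 3399, 1238 and 1722. DESeq2 on the libraries compared called 346, 321, 276 and 570 in the first 4 of these, and leaving out YH29407 replicate 3 gave 75 in YH29407 against the control group. The median fold change of the members was positive with and without control replicate 3 between treated groups, and its sign against the control group depended on that tumor. The same-numbered tumors had deviations correlated at -0.003 to 0.21, over 0.1 in 2 of 9 pairs, and the block left 2 residual degrees of freedom. Of 1371 alternative values of 75 fold changes, 102 had the other sign, 38 of them without control replicate 3, and the cause of the others was not tested. With limma-voom and sample quality weights, 16 fold changes changed sign, to Cxcl5 0.62 in the combination against YH29407, S100a8 1.63, S100a9 2.27, Retnlg 1.11, Cxcl1 0.49, Cxcl2 0.90, Cxcl5 0.37 and Il1b 0.97 in the combination against the control group, S100a8 0.43 in YH29407 against the control group, S100a9 0.20, Csf3r 0.090, Cxcr2 0.31, Retnlg 1.65, Cxcl1 0.23 and Cxcl2 1.30 in all aPD-1 tumors against the rest, Cxcl1 0.26 in all YH29407 tumors against the rest. With a replicate block, although the numbers did not pair the tumors, 14 fold changes changed sign, to S100a8 -0.85, S100a9 -0.28, Retnlg -0.87, Cxcl1 -1.03 and Cxcl2 -1.10 in the combination against YH29407, Csf3r -0.56 and Cxcr2 -0.26 in the combination against the control group, Cxcl1 -0.60 and Cxcl2 -1.005 in the combination against aPD-1, Cxcr2 -0.43 in YH29407 against the control group, Mmp9 1.09 in aPD-1 against the control group, S100a9 -0.12, Il1b -0.30 and Mmp9 0.46 in all YH29407 tumors against the rest. With limma on log2(FPKM + 1), 5 fold changes changed sign, to S100a8 -0.21 and Cxcl1 -0.25 in the combination against YH29407, Cxcl1 -0.0053 in the combination against aPD-1, S100a8 0.033 in YH29407 against the control group, Cxcr2 0.021 in all aPD-1 tumors against the rest. With limma on log2(FPKM + 0.1), 5 fold changes changed sign, to S100a8 -0.76, S100a9 -0.027 and Cxcl1 -0.31 in the combination against YH29407, Cxcl1 -0.042 in the combination against aPD-1, S100a8 0.37 in YH29407 against the control group. With each tumor left out in turn, these fold changes changed sign. In the combination against YH29407, S100a8 ran from -0.43 to 1.30, Cxcl1 ran from -0.76 to 0.46, Cxcl2 ran from -0.50 to 1.73 and Cxcl5 ran from -0.49 to 0.99. In the combination against the control group, S100a8 ran from -1.67 to 3.58, S100a9 ran from -1.68 to 4.36, Csf3r ran from -0.34 to 1.48, Retnlg ran from -2.65 to 3.35, Cxcl1 ran from -2.18 to 1.62, Cxcl2 ran from -2.71 to 1.96, Cxcl5 ran from -2.30 to 2.01, Il1b ran from -1.29 to 1.80 and Mmp9 ran from -0.64 to 1.59. In the combination against aPD-1, Cxcl1 ran from -0.57 to 0.83 and Cxcl2 ran from -0.84 to 2.64. In YH29407 against the control group, S100a8 ran from -2.00 to 3.36, S100a9 ran from -3.05 to 2.86, Csf3r ran from -1.32 to 0.51, Cxcr2 ran from -0.49 to 3.24, Retnlg ran from -3.90 to 2.11, Cxcl1 ran from -2.17 to 1.63, Cxcl2 ran from -3.14 to 0.98, Cxcl5 ran from -2.36 to 2.08 and Il1b ran from -2.23 to 0.86. In aPD-1 against the control group, S100a8 ran from -4.53 to 0.73, S100a9 ran from -5.17 to 0.75, Cxcr2 ran from -2.96 to 0.78, Retnlg ran from -4.63 to 1.39, Cxcl1 ran from -2.37 to 1.44, Cxcl2 ran from -3.85 to 1.32 and Mmp9 ran from -1.82 to 0.40. In all aPD-1 tumors against the rest, S100a8 ran from -2.15 to 0.48, S100a9 ran from -1.90 to 1.12, Csf3r ran from -0.57 to 0.34, Cxcr2 ran from -1.04 to 0.83, Retnlg ran from -1.69 to 1.31, Cxcl1 ran from -1.19 to 0.72, Cxcl2 ran from -1.42 to 1.15 and Il1b ran from -1.43 to 0.26. In all YH29407 tumors against the rest, Retnlg ran from -0.96 to 2.03, Cxcl1 ran from -0.99 to 0.91, Cxcl2 ran from -1.53 to 0.81, Il1b ran from -0.010 to 1.53 and Mmp9 ran from -1.73 to 0.25. In the interaction, S100a8 ran from -0.51 to 4.86, Retnlg ran from -0.15 to 5.88, Cxcl1 ran from -1.45 to 2.36 and Cxcl2 ran from -0.33 to 4.85. Exact tests on FPKM gave 0 values of p under 0.05 in 70 tests, 1 with a pseudocount of 0.1 (Cxcr2) and 0 with TPM. The median r of the 36 pairs without Mmp9 was 0.81, 0.83 without YH29407+aPD-1 replicate 4, and, in alternatives added after the data were seen, 0.78 without YH29407+aPD-1 replicates 2 and 3, the tumors with high skin genes, and 0.76 without control replicate 3, where the lowest r was 0.30. Depth limits the sparse genes most: 3 tumors had 0 counts of Cxcl5 and 2 had 0 counts of Retnlg.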
